A study of Mus musculus with 115 samples.

Results

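The genes described here make cholesterol or regulate, carry and bind it. They are 28 genes of the 22870 in the deposited table, chosen by their known function: 18 enzymes of cholesterol synthesis, 5 sterol sensors and regulators, and 5 lipid transport proteins and receptors. They were measured in dentate granule cells, the main excitatory neurons of the dentate gyrus, each cell's cytosol having been drawn into a patch pipette and sequenced as a library of its own. All cells came from Rbp4-Cre transgenic mice, in which Cre recombinase lets granule cells express mCherry at the injection site. In every group, a retrograde AAV encoding EGFP had been placed in the right ventral hippocampus, so that EGFP marks granule cells whose axons reach the other side. The left hippocampus received saline or kainic acid (KA), an agonist of glutamate receptors that provokes seizures, each together with AAV.cDIO-mCherry. Cells on the left were sampled 2 weeks later, whether or not they showed mCherry.

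The quality-controlled table holds 95 cells. Saline gave 27 EGFP- and 5 EGFP+ cells; KA gave 36 EGFP- and 27 EGFP+ cells. The study states 57, 5, 36 and 27 cells that passed, in the same order, so that 27 of the 57 saline EGFP- cells were analysed here. It gives 3 mice for each group except KA EGFP+, for which it gives 9, but no label ties a cell to its mouse. The labels' own quality flags do not follow the table: 13 of the 95 cells are labelled failed. The title just before each of the 20 labelled cells absent from the table carries a failed flag, and the title before 0 of the 95 kept cells does, so the flags may not belong to the cells they stand beside. Without the 13 cells, as flagged, the enzyme differences described below are 1.14 in place of 0.96 for KA against saline EGFP- cells, 0.25 in place of 0.45 for EGFP+ against EGFP- cells after KA, and 1.71 in place of 1.73 for KA against saline EGFP+ cells. Each group of cells therefore counts as a single sample, and no test between groups was made. The spread given throughout is the SD over cells. Title numbers fall into a first series (1 to 48), which holds KA cells only, and a second series of higher numbers, which holds all saline cells and the remaining KA cells. The labels do not say what separates the series. In the first series, KA and whatever sets the series apart cannot be told apart, and values inside the second series therefore stand beside the pooled ones. Depth ranged from 1277978 to 56183007 counts per cell (median 5221619).

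Cholesterol cannot enter the brain in useful amounts from the blood, so brain cells make their own. The pathway condenses acetyl-CoA into mevalonate, builds the isoprenoid farnesyl diphosphate, joins a pair of these into squalene, closes squalene into lanosterol and trims lanosterol to cholesterol. When the membrane of the endoplasmic reticulum is poor in sterol, SCAP escorts the SREBP transcription factors to the Golgi, where they are cut and released to switch on most of the enzyme genes; INSIG proteins hold SCAP back when sterol is plentiful. In adult brain, astrocytes are regarded as a main source of cholesterol, which they export on apolipoprotein E through ABC transporters, and neurons take such particles up through receptors of the LDL receptor family.

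SREBPs act through a sterol regulatory element, usually with a CCAAT box nearby, and the promoters of 3 members that the results below return to are shown for this arrangement. Sequences are from RefSeq on GRCm38.p6, written 5′ to 3′ on the gene's strand and ending at or before the annotated start. Capitals mark the sterol regulatory element core (searched as TCACNCCAC) and the CCAAT box (CCAAT, or ATTGG where it lies on the opposite strand).
Hmgcs1, chr13:119690101-119690350, plus strand: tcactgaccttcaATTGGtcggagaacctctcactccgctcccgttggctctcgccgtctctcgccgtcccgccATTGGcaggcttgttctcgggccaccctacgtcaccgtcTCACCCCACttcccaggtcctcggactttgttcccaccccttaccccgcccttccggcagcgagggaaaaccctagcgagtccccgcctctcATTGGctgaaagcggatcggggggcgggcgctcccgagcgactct
Sc5d, chr9:42264301-42264550, minus strand: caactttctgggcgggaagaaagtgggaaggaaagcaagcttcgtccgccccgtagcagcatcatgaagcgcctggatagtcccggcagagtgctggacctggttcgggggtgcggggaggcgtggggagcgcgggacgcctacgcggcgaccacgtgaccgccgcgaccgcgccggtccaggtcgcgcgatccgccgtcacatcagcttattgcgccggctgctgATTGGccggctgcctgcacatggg
Insig1, chr5:28071162-28071362, plus strand: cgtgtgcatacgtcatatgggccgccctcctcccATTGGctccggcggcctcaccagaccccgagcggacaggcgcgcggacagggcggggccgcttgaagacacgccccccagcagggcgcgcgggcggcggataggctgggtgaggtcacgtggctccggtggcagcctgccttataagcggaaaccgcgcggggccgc

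Of the 28 members, 23 matched the promoter table. The element core, on either strand, was found in the Hmgcs1 promoter alone among the 23, at -137 to -129 from the start, whereas 1.24% of all 32851 promoters in the table hold it. A CCAAT box, on either strand, lay in 14 of the 18 promoters listed for 15 enzymes (77.8%), each in a different enzyme, against 37.4% of all promoters. Dhcr7 has 3 promoters in the table and Pmvk 2. A GC box (GGGCGG, on either strand), the site family of the factor Sp1, lay in 15 of these 18 promoters (83.3%), in 14 enzymes, against 35.7%. The matches share no letters with each other in Hmgcs1. The windows run from 250 bases before to 50 after each start, and a match describes the letters in them only.

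Most members were seen in a minority of cells. To set cells of unequal depth side by side, each was thinned to 1000000 counts, and a gene was called measured where at least 20% of the 95 cells then had a count. By that rule 20 of the 28 members, and 9243 genes in all, were measured. The members below the limit were the enzymes Mvk, Mvd, Idi1, Lss, Nsdhl and Hsd17b7, the sterol carrier Stard4 and the exporter Abca1. Acat2, the cytosolic thiolase that opens the pathway, had a count in the most cells among the enzymes (59 of 95). Part of its sequence, 39.1% of its stretches of 50 bases, also occurs in other genes. Levels are log2(CPM+1), where CPM is the gene's counts per 1000000 counts of the cell, and the enzyme level of a cell is the mean of this value over the 18 enzymes. A level of 0 means no count in that library.

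Granule cell identity was checked first. Slc17a7, the vesicular glutamate transporter, had a count in 24 of 27 saline EGFP-, 5 of 5 saline EGFP+, 34 of 36 KA EGFP- and 27 of 27 KA EGFP+ cells, and Prox1, the granule cell transcription factor, in 19, 2, 24 and 25. All 9 granule cell markers were seen in each group, except Dsp, which had a count in 0 of 36 KA EGFP- cells. Others were seen in fewer cells after KA: C1ql2 in 25 of 27 saline and 10 of 36 KA EGFP- cells, and Plk5 in 13 and 1. The summed CPM of the 9 markers was 3394 (SD 2079) after saline and 1729 (SD 1278) after KA in EGFP- cells, and 1622 (SD 993) and 1896 (SD 855) in EGFP+ cells. All 12 microglia markers had a count somewhere in each group, and in 30 cells they took at least 0.1% of all counts: 11 EGFP- and 4 EGFP+ cells after saline, and 5 EGFP- and 10 EGFP+ cells after KA. Their summed CPM had a median of 268.2 (0 to 47147) in EGFP- and 25352 (13.1 to 45698) in EGFP+ cells after saline. After KA it was 81.9 (0 to 46456) in EGFP- and 131 (0 to 23231) in EGFP+ cells. Astrocyte markers were at 0 for 2 of 10 genes in each group but the saline EGFP+ cells, where 6 of 10 were at 0. The number of genes with a count after thinning had a median of 4217 in EGFP- cells after saline. After KA it was 6348 in EGFP- cells of the first series and 3310 in those of the second.

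**Figure D1:**
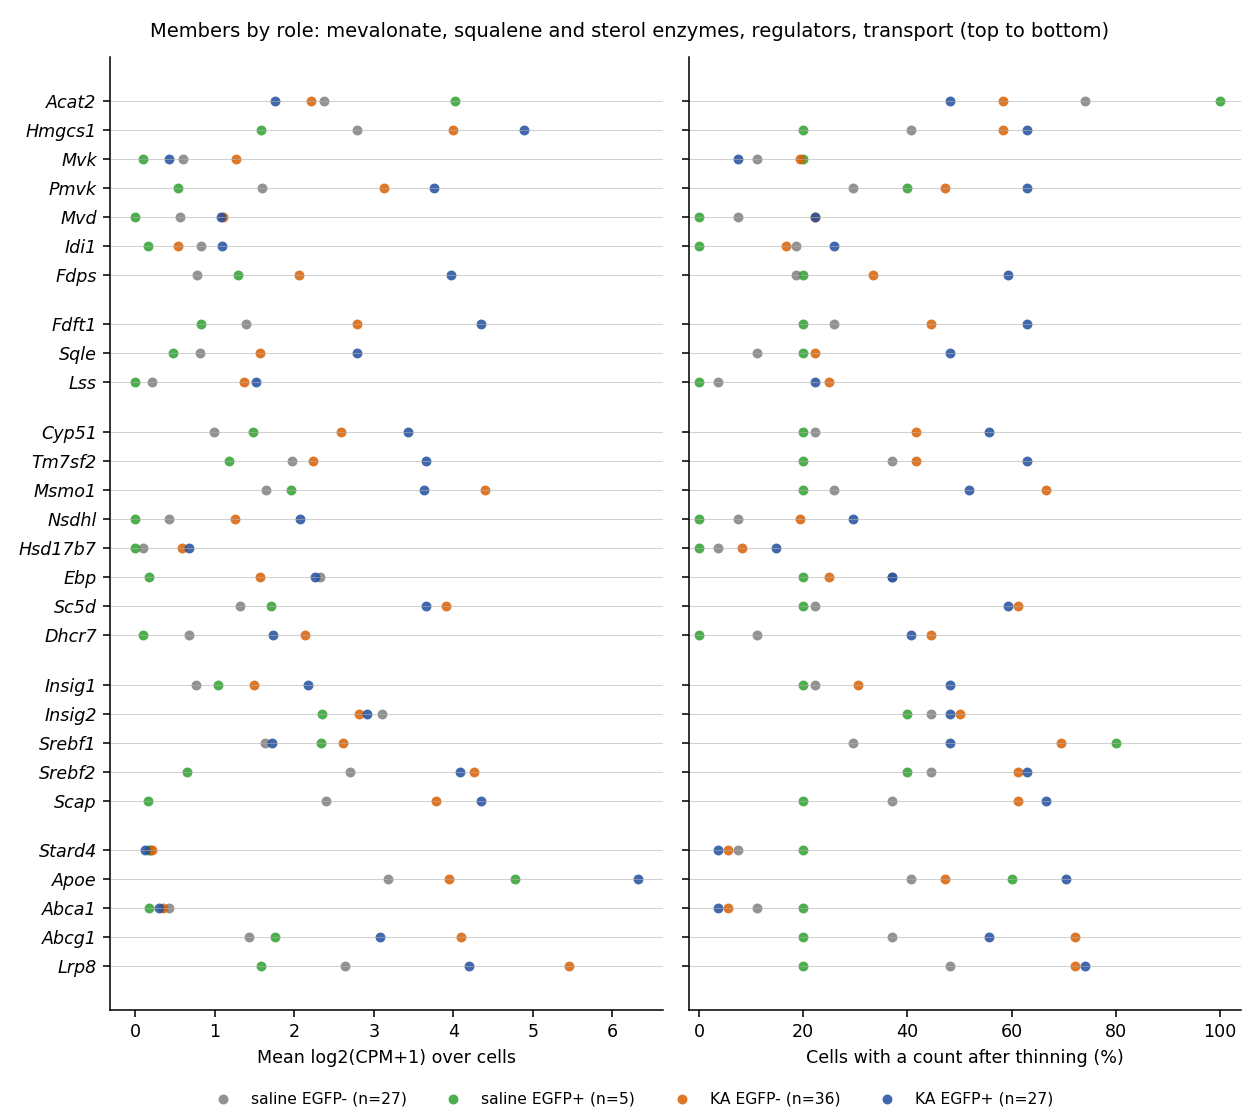
Each row is a member; the left axis gives its mean log2(CPM+1) over the cells of a group and the right axis the percent of cells with a count after thinning, with 1 point per group. Most enzymes lie further right in both KA groups than in both saline groups, whereas Acat2 has its highest mean (4.03) in the 5 saline EGFP+ cells.

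The first comparison asks how the members differ between KA and saline in granule cells without an axon label. Cholesterol synthesis enzymes were on the whole higher in KA EGFP- cells. The enzyme level was 1.19 (SD 0.81, 27 cells) after saline and 2.15 (SD 1.31, 36 cells) after KA, a difference of 0.96, and 15 of the 18 enzymes had a higher mean, beside 66.8% of the 9243 measured genes. By a difference of at least 1, 9 of the 18 enzymes were higher and 0 lower, where 29.3% of the measured genes were higher and 9.64% lower by that much. The median difference was 0.99 over the 18 enzymes, 1.34 over the 12 measured ones and 0.45 over all measured genes. The summed granule cell markers were lower in the same KA cells, and their part in the result was not tested. In saline EGFP- cells the enzyme level ran from 0.03 to 3.22 (median 1.13) and in KA EGFP- cells from 0.00 to 5.13 (median 1.80), so the groups overlapped over most of their range.

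The first title series carried this difference. Its KA EGFP- cells had an enzyme level of 2.83 (SD 1.18, 21 cells), against 1.19 (SD 0.78, 15 cells) in KA EGFP- cells of the second series, a difference from saline of 0.005. Inside the second series 2 of the 18 enzymes were at least 1 higher after KA (Lss and Msmo1) and 2 at least 1 lower (Tm7sf2 and Ebp), beside 9.38% and 33% of the measured genes. Of the 18, 10 had a higher mean there, beside 32.2% of the measured genes. The median of all measured genes was -0.49, and that of the enzymes 0.08 over all 18 and -0.04 over the 12 measured ones. Set against the second series within KA EGFP- cells, the first series had higher means for 17 of 18 enzymes, 13 of them by at least 1 and 0 lower by at least 1. This is beside 90.4%, 69.3% and 1.97% of the measured genes, so most genes shared that order. Relative to the mean of all measured genes in the same cell, the enzyme level was 0.53 higher after KA with all titles and 0.54 higher inside the second series (SD over cells 0.70 after saline and 0.62 after KA).

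The second series alternates saline and KA titles in 6 runs, 3 of each. Saline EGFP- runs had mean enzyme levels of 1.29, 1.21 and 1.14, and KA EGFP- runs 1.09, 1.66 (2 cells) and 1.16, so neither treatment stood above the other by run. The relative level was -1.30, -1.69 and -1.47 in the saline runs and -0.85, -0.55 and -1.23 in the KA runs. Each KA EGFP- run mean was thus above each saline EGFP- run mean, while single cells overlapped. The saline EGFP+ runs were at -1.71 (2 cells) and -0.848 (3 cells). In EGFP- cells of the second series the enzyme level was 1.19 after both treatments. The mean of all measured genes, which is subtracted, was 2.67 (SD 0.92) after saline and 2.13 (SD 0.56) after KA.

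**Figure D2:**
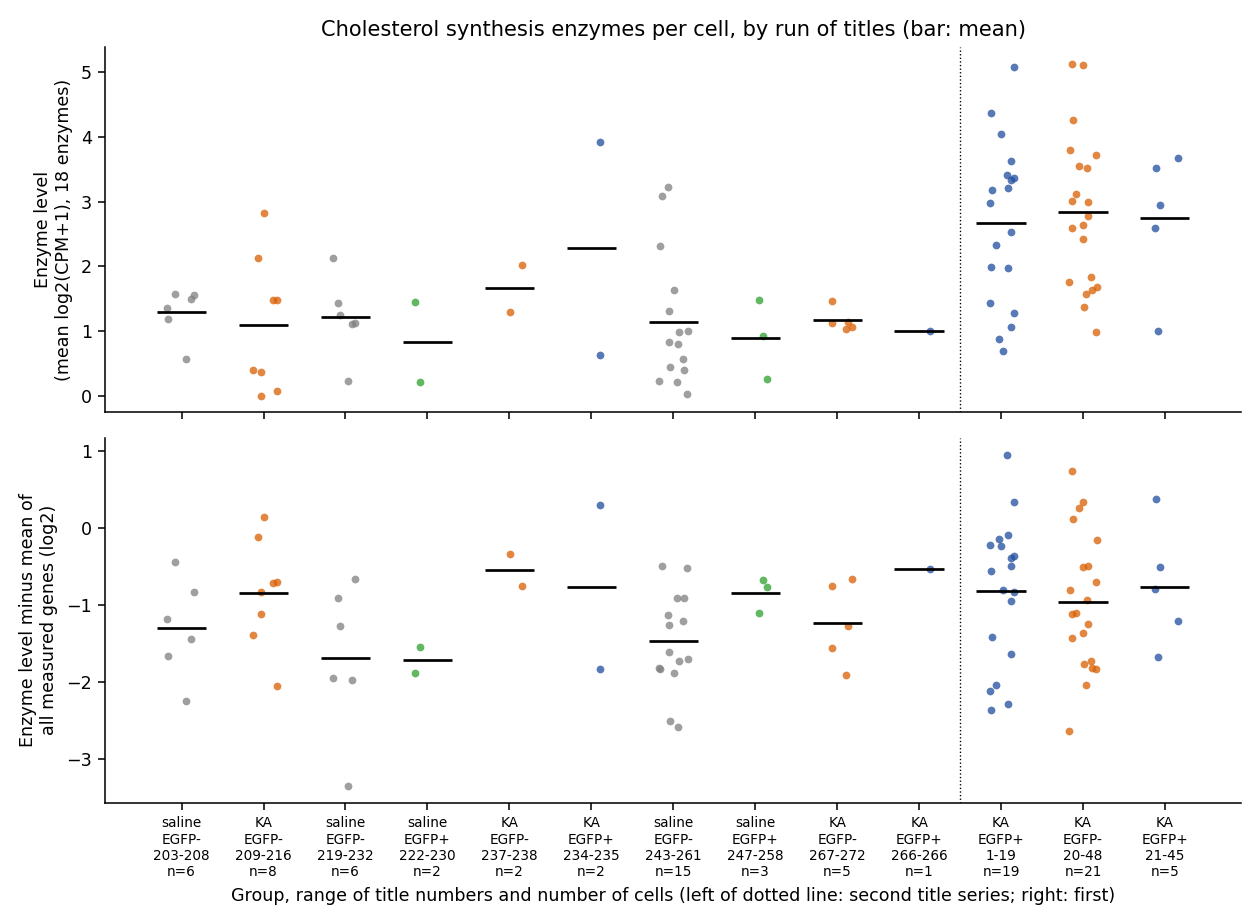
Upper axis: enzyme level per cell (mean log2(CPM+1) of 18 enzymes); lower axis: the same minus the mean of all measured genes; each point is a cell, grouped by group and run of titles, with the mean as a bar. The first title series (right of the dotted line) holds the highest enzyme levels, up to 5.13, and after subtraction its means of -0.82, -0.96 and -0.76 fall within the range of the second series.

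Summed rather than averaged on the log scale, the enzymes gave another picture inside the second series. The summed CPM of the 18 enzymes was 424 (SD 341; lowest 0.428, median 427, highest 1259) in saline EGFP- cells and 761 (SD 546; lowest 0, median 960, highest 1745) in KA EGFP- cells of that series, a ratio of means of 1.80. By mean CPM, 13 of the 18 enzymes were higher after KA, beside 49.9% of the measured genes. Some of the 13 barely differed or rest on single cells. Hmgcs1 was at 93.98 CPM after KA and 93.87 after saline. Sqle and Nsdhl each had a count in 1 of the 15 KA cells after thinning. Run by run the mean sums were 553, 455 and 359 after saline and 483, 1565 (2 cells) and 886 after KA, so the runs overlapped. In the first series KA EGFP- cells summed to 881 (SD 407). KA EGFP- cells of the second series thus had a count for a median of 4 of 18 enzymes, as did saline EGFP- cells. The enzyme sum of those KA cells was higher. Their summed CPM of 7 oligodendrocyte markers was higher too, with a median of 526 (0.183 to 1732). This marker sum had a median of 78.5 (0 to 1130) in saline EGFP- cells and 114 (0 to 562) in KA EGFP- cells of the first series. The part of oligodendrocyte RNA in the enzyme sums was not tested.

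Among the enzymes that build mevalonate and isoprenoids, Hmgcs1, Pmvk and Fdps were at least 1 higher in KA EGFP- cells. Hmgcs1, the HMG-CoA synthase whose promoter holds the sterol element, had a level of 2.78 (SD 3.44; median 0.51, highest 10.30) after saline and 4.00 (SD 3.70; median 4.83, highest 9.69) after KA. Inside the second series its KA level was 2.37 (SD 3.52), lower than saline by 0.42. Pmvk, the kinase that adds the second phosphate to mevalonate, went from 1.59 (SD 3.01) to 3.12 (SD 3.52), and to 1.67 (SD 3.33) inside the second series. Fdps, farnesyl diphosphate synthase, was at 0.77 (SD 1.79) after saline, 2.06 (SD 3.05) after KA and 1.39 (SD 2.89) in the second series. Acat2 was level at 2.37 and 2.20, and the differences of Mvk, Mvd and Idi1 lay between -0.29 and 0.67.

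Fdft1, Sqle and Lss make and close squalene. Fdft1, squalene synthase, had a level of 1.39 (SD 2.45) after saline and 2.79 (SD 3.37) after KA, and 2.17 (SD 3.73) in KA cells of the second series. Sqle, the monooxygenase often called a second control point of the pathway, differed by 0.75 with all titles and by -0.14 in the second series. Lss, lanosterol synthase, was seen in 1 of 27 saline and 9 of 36 KA cells, and its difference was 1.16 with and without the first series.

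The sterol arm held the enzymes that differed the most. Msmo1, which oxidises methyl groups of the sterol ring (gene on GRCm38 chr8:64718139-64733792, minus strand), had a level of 1.64 (SD 3.06; lowest 0, median 0, highest 8.29) after saline and 4.39 (SD 3.48; lowest 0, median 5.90, highest 9.07) after KA. A count was seen in 7 of 27 saline cells (25.9%, exact Clopper-Pearson 95% interval 11.1 to 46.3) and in 24 of 36 KA cells (66.7%, 49.0 to 81.4). In the second series the KA level was 2.93 (SD 3.61), with a count in 7 of 15 cells (46.7%, 21.3 to 73.4), and the difference was 1.28. The intervals cover counting error only and take each cell as an independent draw.

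Sc5d, the desaturase near the end of the pathway (chr9:42251595-42264256, minus strand), behaved much like Msmo1. Its level was 1.31 (SD 2.56; median 0, highest 7.84) after saline and 3.91 (SD 3.62; median 4.59, highest 9.25) after KA. Cells with a count made up 6 of 27 and 22 of 36, and 5 of 15 in the second series, where the difference was 0.98. In cells with a count, the median level was 6.08 after saline and 6.66 after KA for Sc5d, and 7.21 and 6.69 for Msmo1. With all titles, then, the share of cells with a count differed and the level where a count was present was close. In KA cells of the second series the median level in cells with a count was 8.42 for Sc5d, above saline, and 6.10 for Msmo1, below saline.

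Cyp51, the lanosterol demethylase, turned with the title series. It stood at 0.98 (SD 2.45) after saline, 4.07 (SD 3.51) in KA cells of the first series and 0.50 (SD 1.85) in KA cells of the second. Dhcr7, the last reductase, was at 0.67 (SD 1.91) after saline and 2.13 (SD 2.66) after KA, and at 1.43 (SD 2.53) in the second series. Ebp, the sterol isomerase, was the enzyme with the most negative difference: 2.32 (SD 3.48) after saline, 1.57 (SD 2.79) after KA, and 0.03 in the second series, where 0 of 15 cells had a count after thinning against 10 of 27 saline cells. The exact 95% upper limit for 0 of 15 is 21.8% of cells with a count, which sets no limit on cells that express the gene. Tm7sf2, Nsdhl and Hsd17b7 differed by 0.26, 0.82 and 0.49 with all titles.

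**Figure D3:**
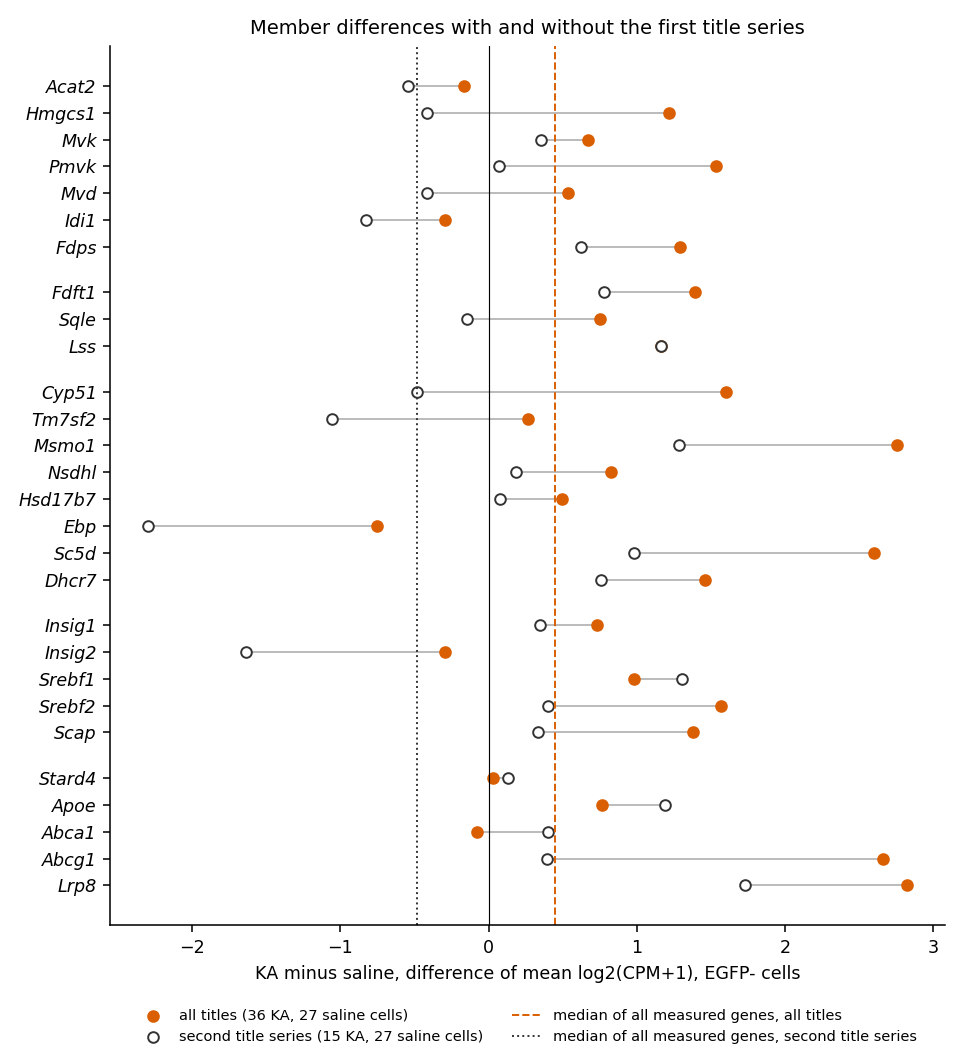
Each row is a member; the horizontal axis is the KA minus saline difference of mean log2(CPM+1) in EGFP- cells, with all titles (filled) and inside the second series (open), and vertical lines give the median of all measured genes. Msmo1 and Lrp8 lie beyond 1 in both, whereas Hmgcs1 and Cyp51 pass from above 1 to below 0.

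Among the regulators, 4 of 5 had a higher mean in KA EGFP- cells, beside 66.8% of the measured genes, so most genes had the same direction. Srebf2 encodes SREBP2, the factor most tied to cholesterol genes. Its level was 2.69 (SD 3.17; median 0, highest 8.26) after saline and 4.26 (SD 3.59; median 5.54, highest 10.59) after KA, and 3.09 (SD 4.08) in the second series. Scap, the sterol-sensing escort, was at 2.40 (SD 3.36) and 3.78 (SD 3.42), and 2.73 in the second series. Srebf1, whose products act more on fatty acid genes, differed by 0.98 with all titles and by 1.30 in the second series, where 10 of 15 KA cells had a count against 8 of 27 saline cells. Insig1, itself a target of SREBPs, was at 0.76 (SD 1.93) after saline and 0.73 higher after KA. Insig2, which is less dependent on SREBPs, was the 1 regulator with a lower mean, by 0.29 with all titles and by 1.64 in the second series, with values of 3.10 (SD 3.80) after saline and 1.46 (SD 3.15) in those KA cells.

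Lrp8 had the largest difference of all 28 members. It encodes the apolipoprotein E receptor 2, a neuronal receptor for reelin and for lipoprotein particles (chr4:107802261-107876840, plus strand). Its level was 2.64 (SD 3.32; lowest 0, median 0.55, highest 8.81) after saline and 5.46 (SD 3.74; lowest 0, median 6.70, highest 12.09) after KA, a difference of 2.82. In the second series it was 4.37 (SD 4.96; median 0, highest 12.09), a difference of 1.73. By run, mean Lrp8 levels were 5.76, 0 (2 cells) and 3.89 in KA EGFP- cells. They were 3.88, 2.34 and 2.26 in saline EGFP- cells, so the runs did not keep 1 order. There, 7 of 15 KA cells and 13 of 27 saline cells had a count, and the median level in cells with a count was 9.49 against 6.74. Cells with a count were thus about as frequent in both groups of that series, and the level in such cells differed.

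Abcg1, an exporter of cellular sterol, was at 1.43 (SD 2.22; median 0, highest 6.64) after saline and 4.10 (SD 3.00; median 4.96, highest 8.35) after KA. Its difference of 2.66 came from the first series, where 20 of 21 KA cells had a count and the level was 5.72 (SD 2.11), the smallest SD of the members beyond 1. In the second series the level was 1.83 (SD 2.60) and the difference 0.39. Abca1, the exporter that loads apolipoproteins, had a count in 3 of 27 saline and 2 of 36 KA cells, and Stard4, a cytosolic sterol carrier, in 2 and 2.

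**Figure D4:**
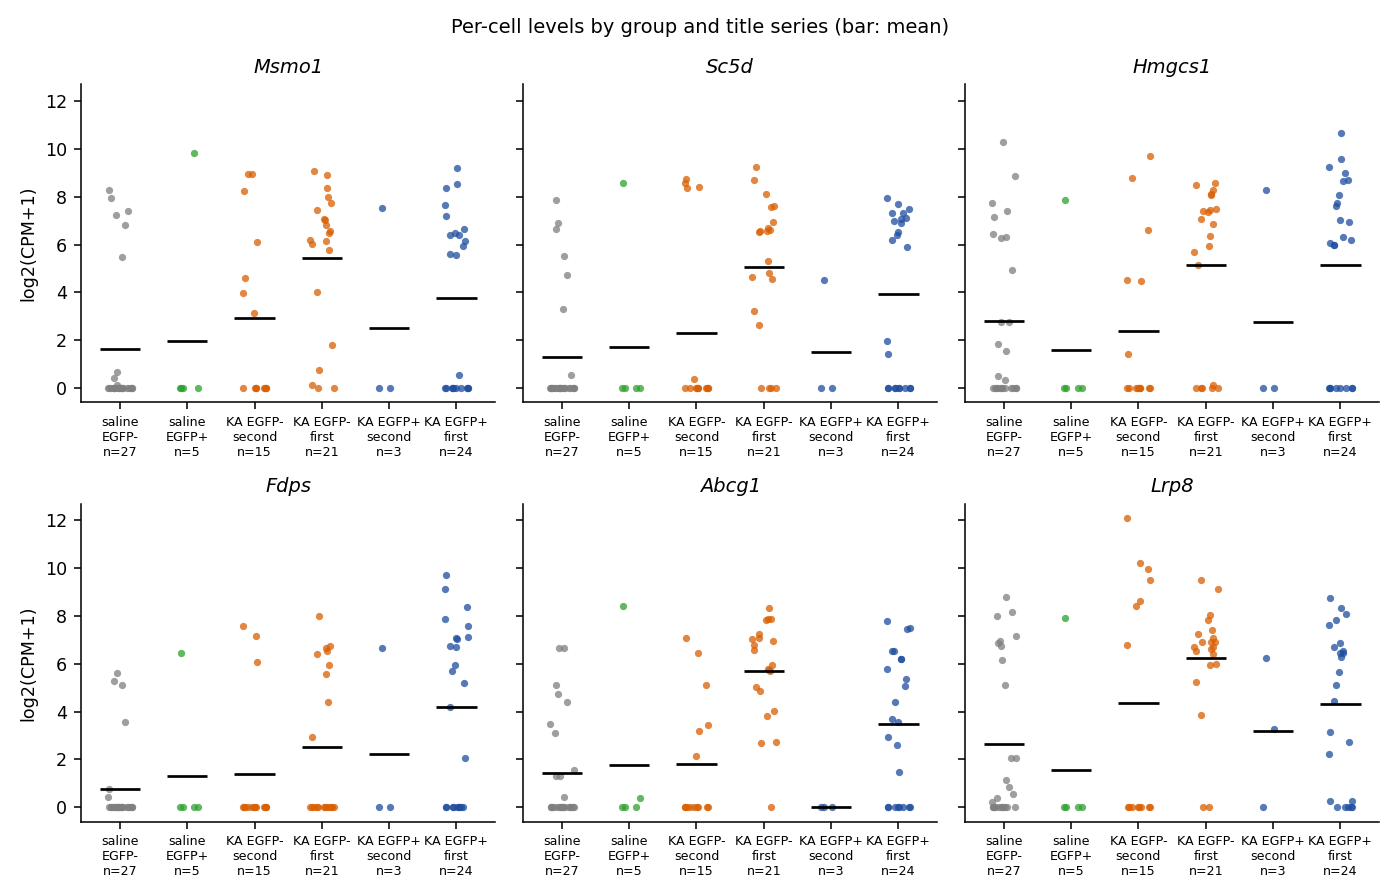
Each panel is a member, each point a cell, and the vertical axis log2(CPM+1), with the mean of each group and title series as a bar. Many cells lie at 0 and most others well above it, and Abcg1 and Lrp8 have few cells at 0 among the 21 KA EGFP- cells of the first series.

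Apoe, the carrier of lipid particles in brain, went with microglia markers in most groups and not with the enzymes. Its level was 3.18 (SD 4.09) after saline and 3.94 (SD 4.90) after KA in EGFP- cells, and the pooled counts gave 328 CPM (exact 95% Poisson interval 325 to 331, counting error only) and 887 CPM (883 to 890). The pooled KA value joins 62.5 CPM in the 21 cells of the first series, below saline, and 3679 CPM in the 15 of the second. In the second series only 5 of those 15 cells had a count after thinning. The difference in mean level was 0.76 with all titles, 1.19 in the second series and 0.91 without the cells with at least 0.1% microglia counts. The highest Apoe level, 15.40, came from a KA EGFP- cell in which microglia markers took 3.71% of all counts. Across cells, Apoe and the log2 summed CPM of the 12 microglia markers had a Pearson r of 0.67 (Spearman's rho 0.62) over the 27 saline EGFP- cells. After KA, r was 0.60 (rho 0.44) for the 36 EGFP- and 0.69 (0.73) for the 27 EGFP+ cells. With astrocyte markers r was 0.15, -0.09 and 0.43 in the same order. The pooled value for KA EGFP- cells joins unlike series: over the 21 cells of the first, r was 0.46 with microglia (rho 0.47) and 0.46 with astrocyte markers (rho 0.55), and over the 15 of the second 0.74 and -0.23. These are descriptions over cells that share their library preparation and, in unknown number, their mouse, and the part of microglial RNA in the Apoe level was not tested further. Per kilobase of exon, Apoe was first of the 28 members by mean CPM in all 4 groups, at 90.5 (SD 206.9) and 204.5 (SD 417) in EGFP- and EGFP+ cells after saline, and 1010 (SD 3728) and 1087 (SD 2843) after KA.

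Enzyme levels also moved with the number of genes a cell yielded. Over the 95 cells, with the mean of each group and title series taken off, the enzyme level and the log2 number of genes after thinning had r 0.64 and rho 0.61. Among cells with 3000 to 6000 genes (19 KA and 18 saline EGFP- cells), a range chosen after the data were seen, the difference was 0.62 and 7 enzymes were at least 1 higher, beside 23.2% of the measured genes. Msmo1 and Lrp8 differed by 2.70 and 2.93 in those cells.

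**Figure D5:**
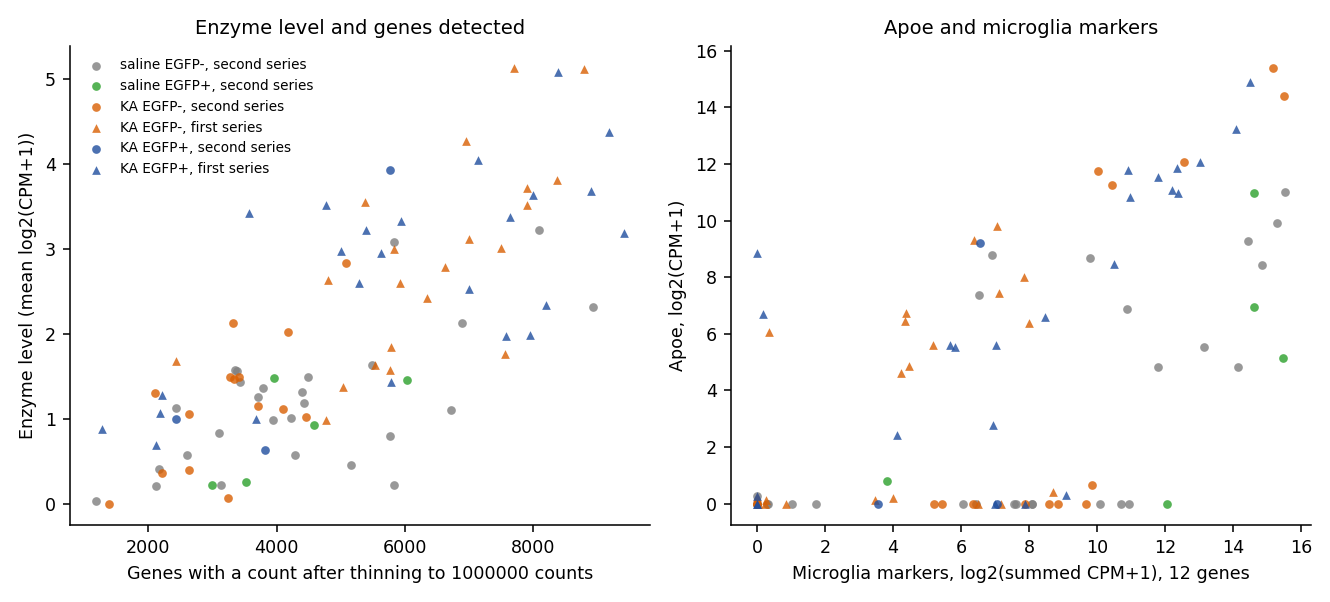
Left: enzyme level (mean log2(CPM+1)) against genes with a count after thinning, 1 point per cell, circles for the second and triangles for the first title series. Right: Apoe log2(CPM+1) against log2 summed CPM of 12 microglia markers. The enzyme level goes up with genes detected (r 0.64 after group and series means are removed), and the cells with the highest Apoe lie to the right.

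The second comparison asks whether granule cells with a labelled crossing axon differ from those without after KA. The enzyme level was 2.59 (SD 1.25, 27 cells) in KA EGFP+ and 2.15 (SD 1.31, 36 cells) in KA EGFP- cells. By a difference of at least 1, 4 of 18 enzymes were higher in EGFP+ cells (Fdps, Fdft1, Sqle and Tm7sf2) and 0 lower, beside 16.8% and 4.06% of the measured genes. In all, 12 of 18 had a higher mean, beside 64.5%. Within titles 1 to 48, which hold 24 EGFP+ and 21 EGFP- cells, the enzyme level was 2.69 (SD 1.19) and 2.83 (SD 1.18). There 1 enzyme was at least 1 higher (Fdps) and 3 at least 1 lower (Mvk, Msmo1 and Sc5d), beside 6.59% and 20.4% of the measured genes. The first 19 titles hold EGFP+ cells only, and in titles 20 to 48, with 5 EGFP+ cells, the difference was -0.09. There 4 enzymes were at least 1 higher and 6 at least 1 lower, beside 16.3% and 29.5% of the measured genes. Inside the second series, with 3 EGFP+ cells, 11 of 18 enzymes had a higher mean, 6 by at least 1, and 1 was lower by at least 1, beside 52.3%, 34.7% and 23% of the measured genes. Of all 18 enzymes, 7 had a higher mean in titles 1 to 48 and 8 in titles 20 to 48, beside 36% and 41.5%.

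Fdps and Fdft1, which stand next to each other in the pathway, were higher in EGFP+ cells in each of these subsets, as was Nsdhl, a sterol dehydrogenase of the last arm seen in few cells (0.81 with all titles, and 0.34 to 1.58 in the subsets). Fdps was at 3.97 (SD 3.64; lowest 0, median 5.20, highest 9.71) in EGFP+ and 2.06 (SD 3.05; lowest 0, median 0, highest 8.02) in EGFP- cells, with a count in 16 of 27 and 12 of 36. The difference was 1.91 with all titles, 1.65 in titles 1 to 48, 1.63 in titles 20 to 48 and 0.84 in the second series. Fdft1 was at 4.35 (SD 3.53; median 6.03, highest 8.92) and 2.79 (SD 3.37; median 0, highest 8.39), with differences of 1.56, 0.96, 1.34 and 3.48. The last value rests on 3 EGFP+ cells, at 0, 8.10 and 8.86. Fdps and Fdft1 share exon bases with another annotated gene, Fdps with Gm43738 over 26.7% and Fdft1 with Ctsb over 18.3% of its exon length, so reads there cannot be assigned to 1 gene by position alone. The same holds for Tm7sf2, which shares 12.1% of its exon length with Vps51.

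Lrp8 and Abcg1 had the opposite order. Lrp8 was at 4.20 (SD 3.18; median 5.11, highest 8.77) in EGFP+ cells, 1.26 below EGFP- cells, and 1.91 below them in titles 1 to 48. A count was seen in 20 of 27 and 26 of 36 cells with all titles, and in 18 of 24 and 19 of 21 in titles 1 to 48. Abcg1 was at 3.08 (SD 2.98), 1.02 below EGFP- cells and 2.25 below them in titles 1 to 48, with a count in 15 of 24 and 20 of 21 of those cells. Beside these counts, 20.4% of the measured genes were at least 1 lower in EGFP+ cells of titles 1 to 48. Apoe was 2.38 higher in EGFP+ cells with all titles, at 6.32 (SD 5.07). It was 0.69 higher without the cells with at least 0.1% microglia counts, and 0.62 lower in titles 20 to 48.

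With all titles, no regulator differed by 1 or more by axon label. Differences of Insig1, Insig2, Srebf2 and Scap were 0.68, 0.10, -0.18 and 0.58, and that of Srebf1 was -0.89. Each was smaller than the SD over cells of either group, as were the differences of Fdps, Fdft1, Lrp8, Abcg1 and Apoe with all titles. Within titles 1 to 48 that of Srebf2 was -1.02, with levels of 4.07 (SD 3.43) and 5.09 (SD 3.02). In titles 20 to 48 Insig1 differed by 1.63, Insig2 by -2.41 and Srebf1 by -1.26. Inside the second series Scap differed by 2.29, Srebf2 by 1.10, Insig2 by -1.46 and Srebf1 by -1.96. These rest on 5 and 3 EGFP+ cells, and of the regulators Insig1 (higher) and Srebf1 (lower) kept 1 direction in all these subsets.

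The third comparison, KA against saline in EGFP+ cells, rests on 5 saline cells. Their enzyme levels were 1.45, 0.22, 1.48, 0.25 and 0.93, and those of the 27 KA EGFP+ cells ran from 0.63 to 5.08 (median 2.95). Microglia markers took a median of 2.54% of all counts (0.0013 to 4.57) in the 5 saline cells. In the 27 KA cells the median was 0.013% (0 to 2.32), and the part of this in the comparison was not tested. The enzyme level differed by 1.73, and 14 of 18 enzymes were at least 1 higher after KA, beside 60.8% of the measured genes. A higher mean was seen for 17 of 18, beside 80.9%, so most genes had the same direction. Acat2 was the 1 enzyme at least 1 lower, beside 8.43%, with 6.35, 3.01, 3.69, 2.42 and 4.66 in the saline cells and a mean of 1.76 (SD 2.26) after KA. Reads of Acat2 cannot be fully separated from those of its near copy Acat3 or of Tcp1: 39.1% of its stretches of 50 bases occur in other genes. In the 5 saline cells, Msmo1 was at 9.81 in 1 cell and at 0 in the others. Hmgcs1, Sc5d, Abcg1 and Lrp8 were all highest in a different cell, at 7.88, 8.56, 8.40 and 7.90. Inside the second series, with 3 KA cells, the difference was 0.99, and 12 enzymes had a higher mean, 8 by at least 1, while 1 was at least 1 lower, beside 52.5%, 37.8% and 25.2% of the measured genes. This comparison uses the same KA EGFP+ cells as the one by axon label. Between the saline groups, 5 of 18 enzymes had a higher mean in EGFP+ cells, 1 of them by at least 1 (Acat2), and 3 were lower by at least 1, beside 30.4%, 11.5% and 38.8% of the measured genes.

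Enzyme genes kept little company from cell to cell. With group and title series means taken off, the 66 pairs among the 12 measured enzymes had Pearson r between -0.13 and 0.47 (median 0.11) over 95 cells, against a median of 0.09 for all pairs of measured genes. The highest pairs were Hmgcs1 with Fdft1 (0.47) and Fdft1 with Cyp51 (0.39). Of the regulators, Insig1 had the highest r with the enzyme level (0.36), ahead of Srebf2 (0.21), Scap (0.21), Insig2 (0.16) and Srebf1 (0.08), while Apoe was at -0.04. By this r, Insig1 ranked 702 among the 9243 measured genes. Srebf2 ranked 4502 and Scap 4548, near the middle, and Insig2 (6059) and Srebf1 (8065) ranked below it. The 5 measured genes outside the members most like the enzyme level were Prps1 (0.56), Cltc (0.55), Rpap1 (0.54), Otud6b (0.52) and Fam168b (0.52). All these values come from single-cell libraries of unequal depth, and in sparse counts such correlations carry the number of genes detected with them.

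Other sterol genes lay close to the background of all measured genes. Of 42 other sterol and isoprenoid genes, 31 had a higher mean in KA EGFP- cells, 13 by at least 1, and 2 were lower by at least 1, beside 66.8%, 29.3% and 9.64% of the measured genes. Inside the second series 15 were higher, 2 by at least 1, and 26 lower, 9 by at least 1, beside 32.2% higher, 9.38% at least 1 higher and 33% at least 1 lower. Acat1, the mitochondrial thiolase, was at 2.23 (SD 3.27) after saline, 4.16 (SD 3.80) after KA and 1.15 (SD 2.95) in KA cells of the second series. Abcg4, a neuronal sterol exporter akin to Abcg1, was at 1.31 (SD 2.51), 3.21 (SD 3.73) and 1.80 (SD 3.39). Gramd1a, a carrier of sterol from the plasma membrane to the endoplasmic reticulum, was at 5.17 (SD 4.17), 7.00 (SD 3.76) and 5.61 (SD 4.81). Lrp1, a further lipoprotein receptor, was at 2.79 (SD 3.46), 4.46 (SD 3.62) and 3.00 (SD 3.99), and Erlin2, which takes part in the turnover of sterol enzymes, at 0.64 (SD 2.20), 2.12 (SD 3.21) and 0.58 (SD 2.25).

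The 15 fatty acid and phospholipid genes of the SREBP pathway gave 14 higher means in KA EGFP- cells with all titles, 6 by at least 1, and 5 higher means inside the second series, 1 by at least 1. The shares of all measured genes are those just given, and the counts inside the second series are close to them. Fasn, fatty acid synthase, was at 1.71 (SD 2.88) after saline, 3.00 (SD 3.49) after KA and 0.94 (SD 2.47) in the second series. Scd2, the main brain desaturase of fatty acids, was at 2.70 (SD 3.46), 4.14 (SD 3.62) and 1.63 (SD 2.61). Over the measured genes of each list, the medians inside the second series were -0.39 for 11 of these genes, -0.54 for 32 other sterol genes and -0.04 for 12 synthesis enzymes, beside -0.49 for all measured genes. Over all listed genes, with those rarely seen near 0, they were -0.24, -0.17 and 0.08.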

How the data were processed

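The authors deposited whole-number read counts per gene symbol for the cells kept by their quality control, and a normalized signal, in which every gene of a cell is multiplied by the same factor (0.118 to 147.5); how the factors were made is not given in the sources used here. Trimmomatic, STAR, featureCounts and kallisto, with build GRCm38, are named in the submitters' processing notes without versions or roles, and the labels' protocols give Nextera XT libraries, so strand is not marked. The 92 spike-in rows (6 counts) were left out. Cells were taken from the quality-controlled table and classes from the labels: of 20 labelled cells absent from it, 12 are labelled passed, and 13 of its 95 cells are labelled failed.

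CPM, log2(CPM+1) means, thinning (seed 1), Clopper-Pearson and Poisson intervals and motif searches were computed with Python 3.11.15, numpy 2.4.6, pandas 2.3.3 and scipy 1.17.1; TMMwsp factors with edgeR 4.0.16. The procedure was tested on simulated data that held counting error only. These lacked the spread over cells seen here, so genes seen in few cells were not covered. No test was run, since no label names the mouse of a cell; the replicates are cells, and the spread may be technical. Depth limits little beyond detection, and the spread over cells sets the precision. Gene positions and shared exon bases are from the GENCODE annotation of GRCm38. Alternatives were other scalings, pseudocounts, filters, pooled counts and subsets of cells. The members and lists were chosen with earlier results of these data known. All members are accounted for; of the other lists, the 6 measured genes of each with the largest KA minus saline difference in EGFP- cells were to be named, of which 1 is not reported here.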

Additional observations from a re-analysis of the deposited data

Results flagged for a closer look

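For 19 members, 1 of the 5 saline EGFP+ cells stood apart from the other four, and it was not the same cell for each (values are log2(CPM+1), with the next cell at 0 unless given). One cell had Hmgcs1 at 7.88, Fdps at 6.44, Sc5d at 8.56, Lrp8 at 7.90 and Abcg1 at 8.40 (next 0.41). Another had Fdft1 at 4.12, Sqle at 2.35, Cyp51 at 7.38, Tm7sf2 at 5.87 and Insig1 at 5.22. A further cell had Msmo1 at 9.81, with Ebp at 0.83, Stard4 at 0.83 and Abca1 at 0.83. Of the remaining cells, one had Srebf2 at 3.04 (next 0.22), Idi1 at 0.79 and Scap at 0.79, and the last had Mvk at 0.45 and Dhcr7 at 0.45. Each of the 5 cells was thus the highest for some members. The values below 1 given as highest (Ebp, Stard4, Abca1, Idi1, Scap, Mvk and Dhcr7) are 1 count each. Both values listed for the last cell are of this kind. Among the 5 KA EGFP- cells of the last run of titles, the highest enzyme level was 1.47, with the next at 1.14. The gap to the nearest cell exceeded Dixon's 95% value in 20 of 30 sets of values tested. Genes seen in a single cell of 5 always pass, so this number cannot be set against the 1 in 20 that chance would pass.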

How the results depend on the processing

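The enzyme difference between KA and saline EGFP- cells ranged from 0.005 to 1.43 over 14 alternatives, and relative to all measured genes from 0.29 to 1.17. The count of enzymes at least 1 higher there was 2 with a pseudocount of 10 and 2 inside the second title series, where Hmgcs1 (-0.42) and Cyp51 (-0.48) also changed sign. Msmo1 and Lrp8 were at least 1 higher under all 14. For EGFP+ against EGFP- cells after KA, the enzyme difference was -0.14 inside titles 1 to 48, -0.0873 inside titles 20 to 48 and -0.0152 with pooled counts without the cell with the most counts. The enzyme count, 4 as reported, was 1 with a pseudocount of 10, 9 with 0.1, 2 with pooled counts without that cell, 9 among cells with 3000 to 6000 genes and 1 inside titles 1 to 48. Sqle was at -0.0675 with pooled counts and -0.61 inside titles 20 to 48, where Tm7sf2 was at -1.03 and Apoe at -0.62; Apoe was at -1.30 inside the second series. Lrp8 was at least 1 lower under all 16 alternatives. For KA against saline EGFP+ cells, the enzyme difference ranged from 0.91 to 2.77 over 19 alternatives. Relative to all measured genes it ranged from 0.05 to 1.14. The enzyme count in this comparison was 8 with a pseudocount of 10 and 8 inside the second series. Leaving out each saline EGFP+ cell gave enzyme differences of 1.57 to 1.88, relative differences of 0.22 to 0.53 and counts of 14 to 15. The share of all measured genes at least 1 higher moved between subsets too. For KA against saline EGFP- cells it was 29.3% with all titles and 9.38% inside the second series. For EGFP+ against EGFP- cells after KA it was 16.8%, and 6.59% inside titles 1 to 48. For KA against saline EGFP+ cells it was 60.8%, and 37.8% inside the second series. Enzyme counts under the other settings stand without such a share here and are no result about the enzymes. The pooled counts without the deepest cell and the range of 3000 to 6000 genes were chosen after seeing the data. No paired analysis was possible because replicate numbers only name cells and no result comes from a test. The cause of these changes was not tested. Stard4 and Abca1 were seen in few cells without thinning too. At full depth Stard4 had a count in 2 of 27 saline and 3 of 36 KA EGFP- cells, and Abca1 in 3 and 2.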

Other observations

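Per kilobase of exon, the order of members by mean CPM differed between groups. Hmgcs1 was at 20.4 in saline EGFP-, 25.2 in KA EGFP- and 47.5 CPM per kb in KA EGFP+ cells, and Pmvk at 20.5, 48.3 and 32.8. Msmo1 was at 6.20 in saline EGFP- and 19.1 in KA EGFP- cells.

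Other lipid genes with larger differences between KA and saline EGFP- cells were Pcyt2, an enzyme of phosphatidylethanolamine synthesis, at 5.89 against 3.43 (4.90 inside the second series), and Aacs, which activates acetoacetate, at 2.80 against 1.04 (1.34). Fads1, a desaturase of polyunsaturated fatty acids, was at 3.99 against 2.76 (2.78), and the fatty acid elongase Elovl6 at 2.61 against 1.53 (2.48). All are mean log2(CPM+1), with no test.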
